A study of Homo sapiens with 6 samples.

Results

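The SLC25 genes encode the mitochondrial carrier family, and they were taken as every row of the deposited count table whose gene name is SLC25A followed by a number. This gave 48 of the 58735 genes in the table. The study set 3 libraries of curcumol-treated ACHN cells (Cur) against 3 libraries of control ACHN cells (Ctrl). ACHN is an established line of human kidney cancer, labelled as clear cell renal cell carcinoma with a wild-type genotype. Curcumol is a sesquiterpenoid of Curcuma rhizomes, and the labels give neither its dose nor the time of exposure. The labels call the control a vehicle control, whereas the series' design text says that it received no drug. Every library came from this one line, and the replicates are described as independent biological replicates.

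Mitochondrial carriers sit in the inner membrane and exchange metabolites, nucleotides and cofactors between the cytosol and the matrix. Each is built from repeats of a shared membrane module, and most swap one substrate for another. A few members lie elsewhere, such as SLC25A17 in the peroxisome and SLC25A46 in the mitochondrial outer membrane. In kidney epithelium carriers feed oxidative phosphorylation, and in cells that make lipid or heme they move citrate, glycine and iron. The carriers below are ordered by the substrate they are known to carry, and counts stand for mRNA and not for transport.

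Libraries held 16962012 to 17827433 counts, and 40 of the 48 carriers had enough counts to be tested among 15160 genes. Of 12 renal epithelial markers, 11 had counts in Cur and 11 in Ctrl, and of the 10 that could be tested 3 were higher and 7 lower in Cur. Among well-counted markers, PAX8 was lower at 60.1 ± 3.38 CPM (counts scaled by TMM library size) in Cur and 192 ± 4.49 CPM in Ctrl, and GGT1, an enzyme of the brush border, was higher at 150 ± 7.04 CPM in Cur and 68.3 ± 5.27 CPM in Ctrl (SD, n = 3). LRP2, a marker of the proximal tubule, was at 0 in all libraries, and CA9, a marker often used for clear cell tumours, was near 0 at 0.105 ± 0.0964 CPM in Cur and 0.0172 ± 0.0298 CPM in Ctrl (SD, n = 3). The 12 renal markers summed to 3087 to 3574 CPM in Cur and 4415 to 4798 CPM in Ctrl. Most of this sum was KRT8 (1326 CPM in Cur and 1970 in Ctrl), VIM (938 and 1247), KRT18 (550 and 650) and KRT19 (253 and 396). The other renal markers hardly enter it and went both ways. Fibroblast markers (5 genes) summed to 11.1 CPM in Cur replicate 2 and to 0.961 and 1.70 CPM in the other Cur libraries, against 4.80 to 5.38 CPM in Ctrl. Blood cell markers (6 genes) summed to 4.74 to 5.53 CPM in Cur, nearly all of it CD14, and to at most 0.155 CPM in Ctrl, and endothelial markers stayed at or below 0.821 CPM in every library. The part of these in the carrier results was not tested. Without Cur replicate 2 the fit called 14 of 41 carriers higher and 17 lower, against 14 and 18 of 40 with it. Leaving out that library does not bear on CD14, which had 71, 77 and 67 counts in Cur and 0, 3 and 2 in Ctrl.

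Carrier mRNAs went both ways in curcumol-treated cells. Of the 40 tested, 14 rose (35%) and 18 fell (45%), and 8 did not pass, by the edgeR quasi-likelihood test with Benjamini-Hochberg adjustment over all genes tested and a threshold of 0.05. Among all genes tested 39.4% were higher and 40.3% lower, 79.7% together, so the share of carriers called, 80%, was near the background. The libraries of the 2 groups did not overlap for 34 of the 40 (85%), against 81% of all genes. Of these, 9 rose and 11 fell by 2-fold or more (50% together, against 44.4% of all genes), and 6 changed by 4-fold or more (15%, against 16% of all genes). The median log2 fold change of the tested carriers was -0.06, beside -0.02 for all genes tested. The carriers together took 0.246% ± 0.00299 of counts in Cur and 0.251% ± 0.00285 in Ctrl (SD, n = 3), and these ranges overlapped (exact permutation test, two-sided, p = 0.2, where the smallest possible p is 0.1).

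**Figure D1:**
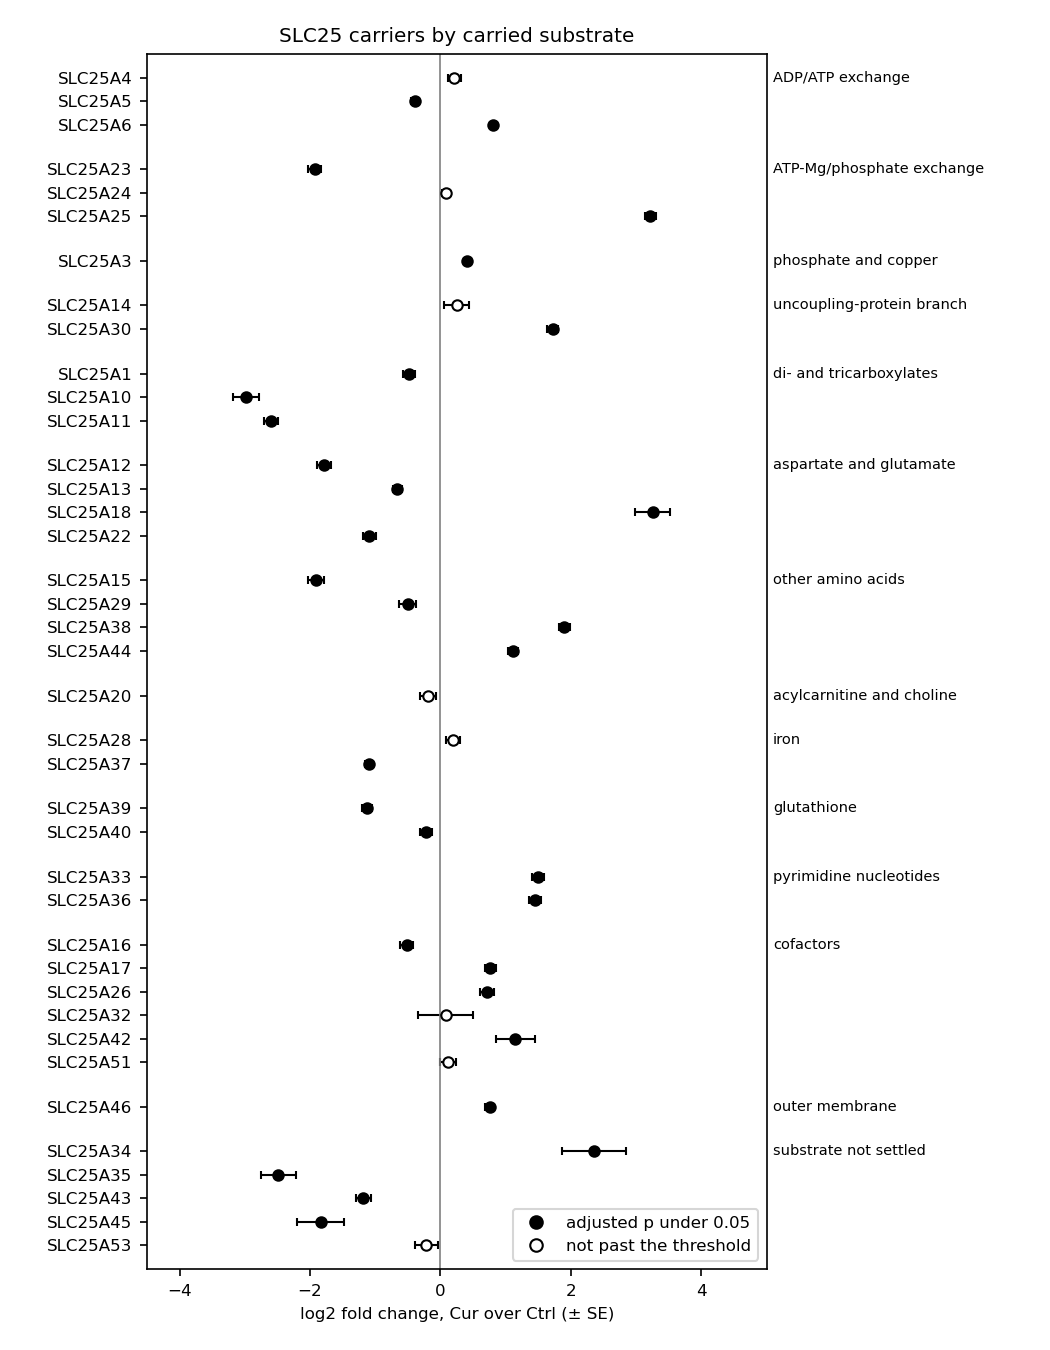
Log2 fold change of the tested carriers named in the text (x axis, Cur over Ctrl, ± SE from edgeR), grouped down the page by carried substrate; filled points passed an adjusted p of 0.05 and open points did not. SLC25A18 and SLC25A25 lie farthest to the right at 3.25 and 3.22, SLC25A10 and SLC25A11 farthest to the left at -2.98 and -2.60, and members of the same substrate class lie on both sides of 0 in several classes.

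The carriers that supply ATP synthesis were the most abundant, and the balance between the ADP/ATP translocases differed between the groups. These translocases export ATP from the matrix against ADP. SLC25A5 (ANT2), the isoform of proliferating cells (chromosome X, 119468400 to 119471319, GRCh38), had 212, 185 and 183 CPM in Cur and 251, 267 and 245 CPM in Ctrl. SLC25A6 (ANT3), a broadly expressed isoform in the pseudoautosomal region (chromosome X, 1386152 to 1392724), had 236, 231 and 241 CPM in Cur and 137, 130 and 136 CPM in Ctrl. The groups did not overlap for either gene, and the genes moved in opposite directions. SLC25A5 fell by 0.39 ± 0.06 on the log2 scale (± SE; adjusted p = 8.97e-06 from edgeR), and SLC25A6 rose by 0.81 ± 0.06 (adjusted p = 2.18e-11). With an offset for GC content the rise of SLC25A6, whose longest transcript is 64.9% GC, was larger at 1.59. SLC25A4 (ANT1), the isoform of heart and muscle, stood at 19.1 ± 0.946 CPM in Cur and 16.5 ± 0.452 CPM in Ctrl (SD, n = 3) and did not pass (0.22 ± 0.10, adjusted p = 0.0598). It passed as higher with DESeq2-type size factors (adjusted p = 0.0314), a stricter filter (0.0422), an exon length offset (0.0307) and without Cur replicate 3 (0.0425), and stood at -0.05 with library totals. SLC25A31 (ANT4), known from testis, had 4, 4 and 6 counts in Cur and 0 in each Ctrl library and was too low to be tested.

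Per kilobase of exon, SLC25A5 made up 55.6, 52.6 and 51.5% of translocase counts in Cur and 71.5, 73.7 and 71.2% in Ctrl, and SLC25A6 made up 45.1% ± 2.10 in Cur and 26.4% ± 1.41 in Ctrl (SD, n = 3). Such shares do not depend on the scaling between libraries. The SLC25A5 share differed by -18.9 percentage points without overlap (exact permutation test, p = 0.1, the smallest that 3 against 3 can give, and 0.11 adjusted over the 11 class shares examined). The summed level of the class was 449 ± 17.5 CPM in Cur and 405 ± 8.16 CPM in Ctrl. Unlike the shares, this sum depends on the scaling. Taken over library totals, it was lower in every Cur library than in any Ctrl library. With library totals SLC25A5 fell by 0.66 and SLC25A6 rose by 0.55 on the log2 scale. The 9 annotated pseudogenes of SLC25A5 took 12 counts in Cur and 0 in Ctrl, and the sources used here do not say how reads matching more than 1 gene were counted. That bears on SLC25A6 too, since a pseudoautosomal gene lies on chromosome Y as well, so its level and share may leave out reads. SLC25A5 shares 227 exonic bases with its antisense gene SLC25A5-AS1, which had 2, 4 and 4 counts in Cur and 20, 29 and 21 in Ctrl. SLC25A3, the phosphate carrier that also brings copper to the matrix, was the carrier with the most counts, at 973, 890 and 883 CPM in Cur and 686, 709 and 668 CPM in Ctrl. It rose by 0.41 ± 0.06 (adjusted p = 7.12e-07), but by 0.15 with library totals and by 0.16 with a GC offset.

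**Figure D2:**
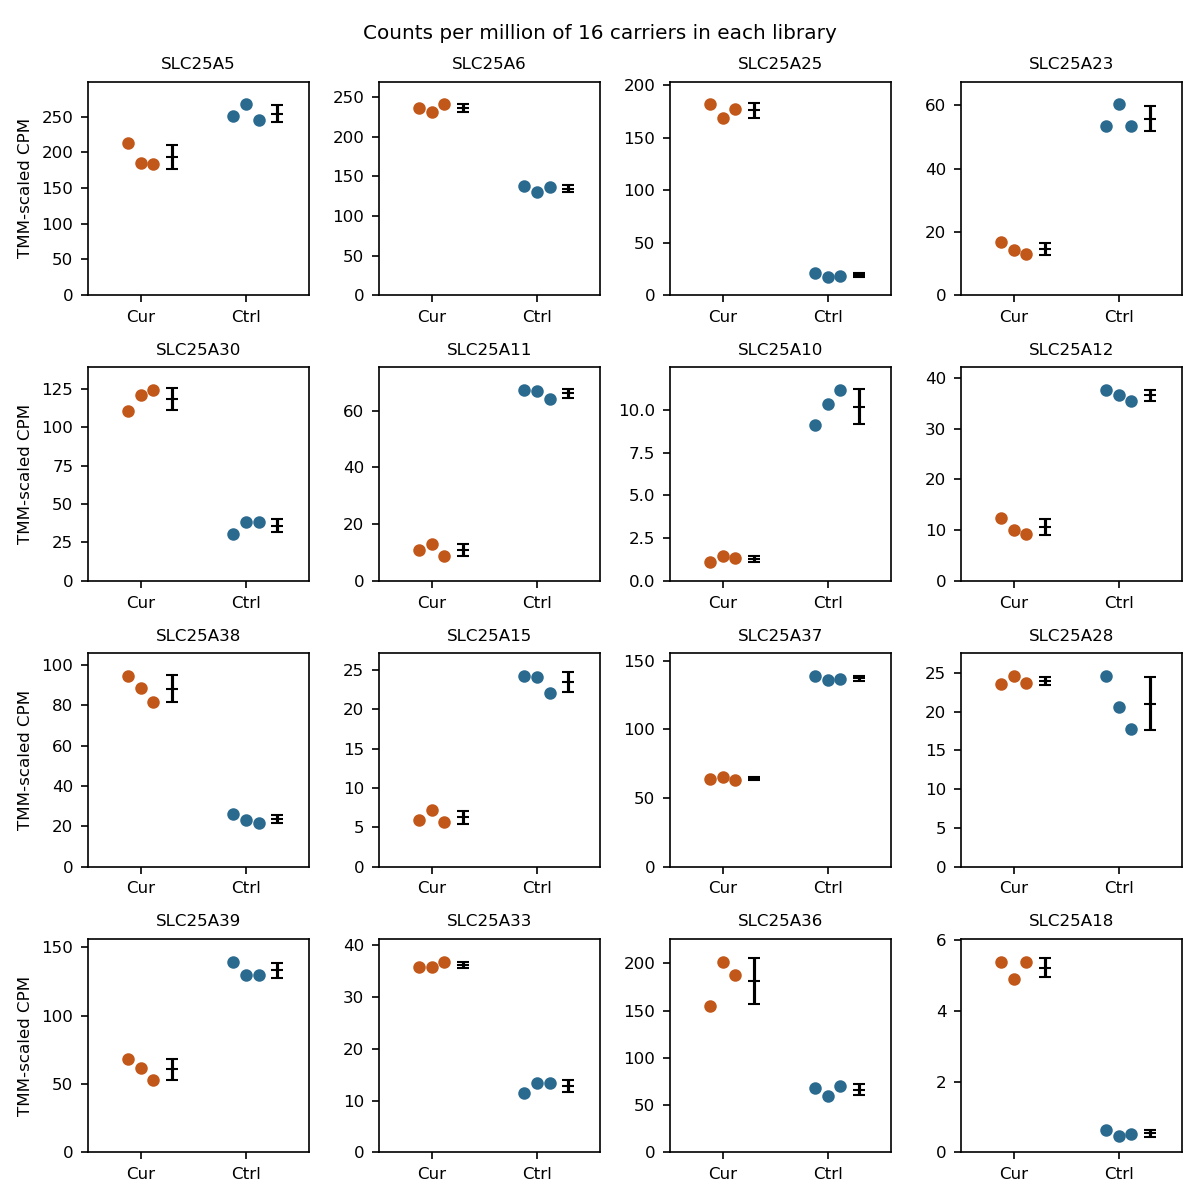
TMM-scaled CPM (y axis, from 0 in each panel) of 16 carriers in the 3 Cur libraries (orange, left) and the 3 Ctrl libraries (blue, right), with the mean and SD in black beside them. The groups are apart in all panels but that of SLC25A28, where Ctrl ran from 17.8 to 24.6 CPM and overlapped Cur.

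The carriers that exchange ATP-Mg for phosphate, most of them switched by cytosolic calcium, changed their order. SLC25A25 (SCaMC-2; chromosome 9, 128068201 to 128109245) had 182, 168 and 178 CPM in Cur and 20.8, 17.2 and 18.6 CPM in Ctrl, so every Cur library was far above every Ctrl library. It rose 9.32-fold, or 3.22 ± 0.08 on the log2 scale (± SE; adjusted p = 8.03e-19 from edgeR). SLC25A23 (SCaMC-3) had 16.7, 14.3 and 13.1 CPM in Cur and 53.5, 60.3 and 53.6 CPM in Ctrl. It fell by 1.93 ± 0.10 on the log2 scale (adjusted p = 1.12e-13), again without overlap. SLC25A24 (SCaMC-1) stood at 88.1 ± 2.04 CPM in Cur and 83.1 ± 4.05 CPM in Ctrl and did not pass (0.08 ± 0.07, adjusted p = 0.247), but was lower at -0.18 with library totals (adjusted p = 0.018) and at -0.47 with a GC offset (adjusted p = 5.41e-08). SLC25A41, a relative that lacks the calcium switch, had 4, 1 and 2 counts in Cur and 1, 0 and 0 in Ctrl.

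SLC25A25 made up 69.3, 67.8 and 69.2% of the counts per kilobase of this class in Cur and 15.7, 12.1 and 13.8% in Ctrl. SLC25A23 made up 5.82% ± 0.655 in Cur and 41.5% ± 1.48 in Ctrl (SD, n = 3). The summed level of the class was 279 ± 6.54 CPM in Cur and 158 ± 5.63 CPM in Ctrl. Of the exons of SLC25A25, 665 bases lie opposite its antisense gene SLC25A25-AS1, which had 37, 62 and 51 counts in Cur and 75, 80 and 63 in Ctrl (log2 fold change -0.27 ± 0.22, adjusted p = 0.282). Whether counting used strand is not given in the sources used here, so reads from exons on opposite strands cannot be told apart.

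The promoter of SLC25A25 is shown because this gene had the largest well-counted rise of the family (RefSeq, GRCh38.p14, chr9:128067982-128068281, plus strand, 250 bases before to 50 after the annotated start). Capitals mark matches to the core of the antioxidant response element, TGACNNNGC, searched on both strands.
SLC25A25: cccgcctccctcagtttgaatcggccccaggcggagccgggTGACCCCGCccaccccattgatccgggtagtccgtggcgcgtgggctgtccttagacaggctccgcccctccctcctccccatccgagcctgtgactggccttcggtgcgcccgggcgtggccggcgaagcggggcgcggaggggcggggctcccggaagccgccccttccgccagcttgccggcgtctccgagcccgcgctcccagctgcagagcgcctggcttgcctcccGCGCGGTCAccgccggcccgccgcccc
The matches begin at position -209 and, on the other strand, at position 24 from the start. This motif was found in 13.5% of 27305 promoters of the same length and in 6 of 40 carrier promoters (15%), namely 2 of 13 carriers that rose and 4 of 14 that fell and had a promoter in the table. The heat shock element core, GAA and TTC with any pair of bases between them, was in 6.91% of all promoters and in 3 of the 40 carrier promoters (7.5%), 1 of them among carriers that rose and 0 among those that fell.

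**Figure D3:**
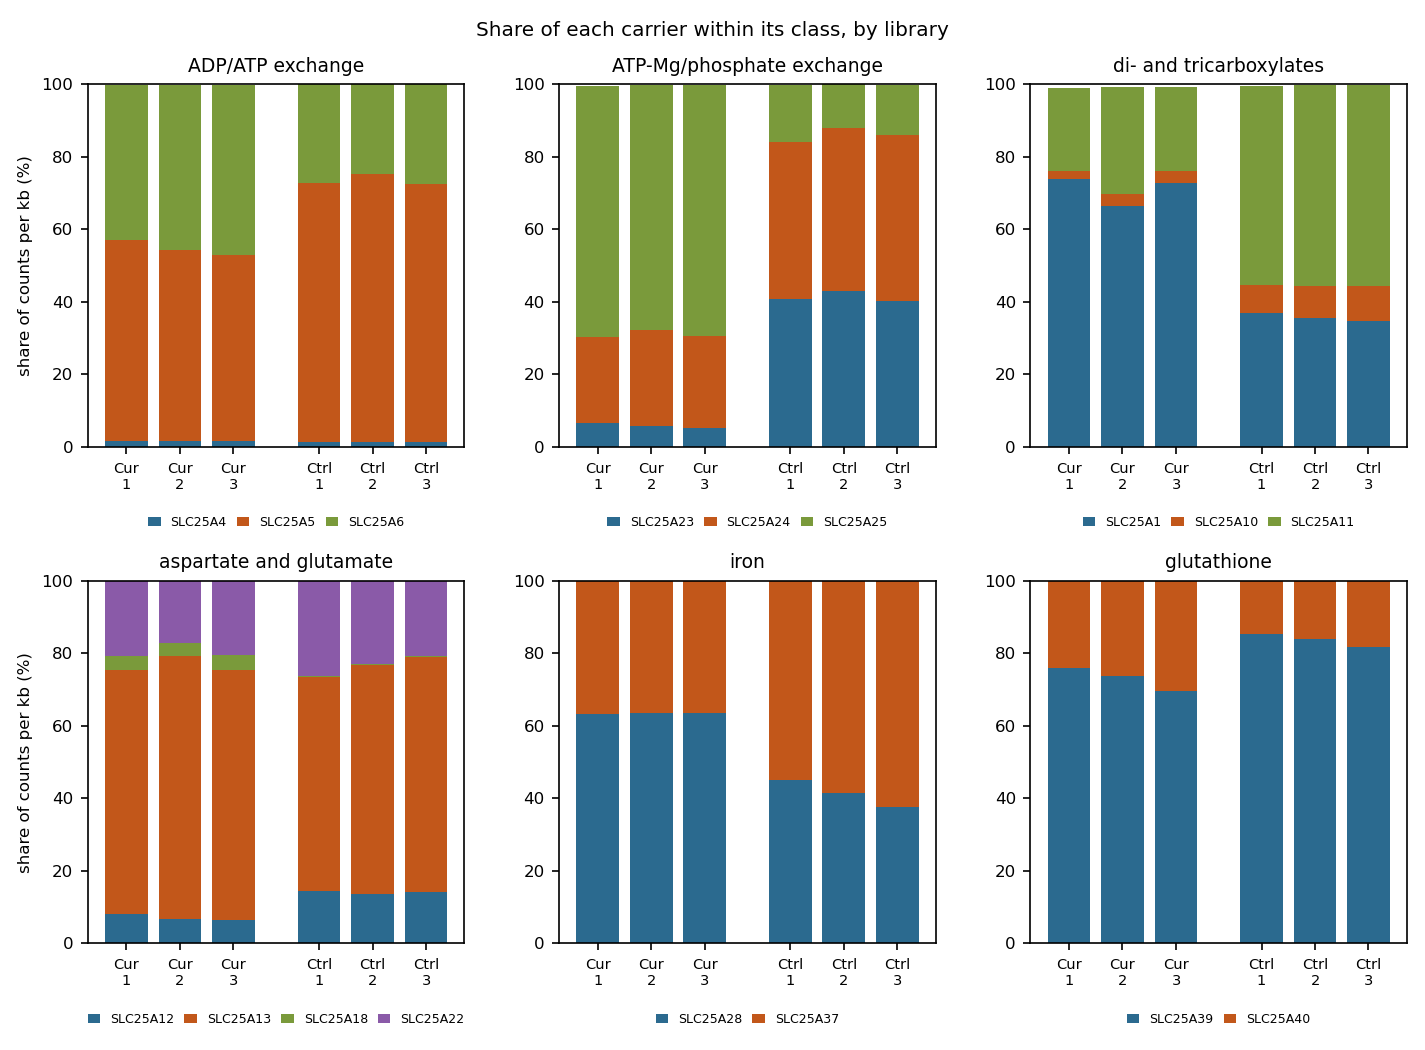
Share of each tested carrier in the counts per kilobase of its class (y axis, percent) in the 3 Cur libraries (left bars) and the 3 Ctrl libraries (right bars), for 6 classes. SLC25A25 takes 67.8 to 69.3% of its class in Cur and 12.1 to 15.7% in Ctrl, and SLC25A37 takes 36.4 to 36.8% of the iron class in Cur and 54.9 to 62.4% in Ctrl; bars that stop short of the top leave out members too low to test.

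Carriers of the uncoupling-protein branch with SLC25A numbers were higher, did not pass or were too low to be tested, while UCP3 rose and UCP2 fell. SLC25A30 (KMCP1), first described in mouse kidney mitochondria (chromosome 13, 45393316 to 45418455), had 111, 121 and 124 CPM in Cur and 30.8, 38.5 and 38.4 CPM in Ctrl. It rose by 1.72 ± 0.08 (adjusted p = 4.74e-14). SLC25A14 (UCP5) overlapped between the groups at 8.01, 7.10 and 4.74 CPM in Cur and 6.03, 5.93 and 4.75 CPM in Ctrl, and did not pass (0.25 ± 0.19, adjusted p = 0.237). Without Cur replicate 3 it passed as higher at 0.44 (adjusted p = 0.0305), and without Cur replicate 1 it stood at 0.09. SLC25A27 (UCP4), a brain carrier, had 2 counts over the Cur libraries and 1 over the Ctrl libraries. Of the relatives that carry other symbols, UCP3, known from muscle, was higher at 8.27 ± 0.511 CPM in Cur and 0.404 ± 0.211 CPM in Ctrl (4.34 ± 0.28, adjusted p = 3.75e-12). UCP2, which exports C4 metabolites, was lower at 2.98 ± 0.486 CPM in Cur and 9.16 ± 0.917 CPM in Ctrl (-1.62 ± 0.18, adjusted p = 3.47e-08). MTCH1 rose by 0.69 ± 0.06 and MTCH2, a protein insertase of the outer membrane, fell by 0.38 ± 0.08, while UCP1 was too low to be tested.

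All 3 tested carriers of di- and tricarboxylates fell. SLC25A11, the oxoglutarate-malate exchanger (chromosome 17, 4937130 to 4940251), had 10.8, 13.1 and 8.78 CPM in Cur and 67.2, 66.8 and 64.2 CPM in Ctrl. It fell by 2.60 ± 0.11 on the log2 scale (adjusted p = 3.09e-15), which is 6.06-fold lower. SLC25A10, the dicarboxylate carrier that exchanges malate and succinate for phosphate (chromosome 17, 81712236 to 81721016), had 17, 23 and 21 counts in Cur and 169, 200 and 216 in Ctrl. That is 1.29 ± 0.181 CPM in Cur and 10.2 ± 1.03 CPM in Ctrl (SD, n = 3), a log2 fold change of -2.98 ± 0.20 (adjusted p = 1.06e-11). Neither gene overlapped between the groups, and both stayed 4-fold or more lower with a GC offset, at -2.03 and -2.19.

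SLC25A1, the citrate carrier that supplies the cytosol with carbon for lipid synthesis, had 27.4, 23.0 and 21.7 CPM in Cur and 35.5, 33.6 and 31.5 CPM in Ctrl. It fell by 0.48 ± 0.10 (adjusted p = 1.5e-04), but was higher at 0.31 with a GC offset (adjusted p = 0.00165), where its longest transcript is 65.6% GC. SLC25A21, which carries oxoadipate, had 10, 7 and 5 counts in Cur and 13, 6 and 6 in Ctrl and was not tested. SLC25A11 made up 22.9, 29.6 and 23.1% of the counts per kilobase of the class in Cur and 55.0, 55.5 and 55.4% in Ctrl, and the summed level was 36.7 ± 4.10 CPM in Cur and 110 ± 2.75 CPM in Ctrl. The 4 listed genes that act on cytosolic citrate or on the acetyl-CoA made from it fell, beside 40.3% of all genes. On the log2 scale ATP citrate lyase ACLY fell by 0.83 ± 0.06 and acetyl-CoA carboxylase ACACA by 1.56 ± 0.07. Cytosolic aconitase ACO1 fell by 1.69 ± 0.06, and fatty acid synthase FASN, whose longest transcript is 65.3% GC, by 2.79 ± 0.06. No GC offset is given for these genes. SLC25A11 shares 244 exonic bases (9.14%) with RNF167 on the other strand, a gene with 10427 counts over all libraries. For SLC25A10, 1221 exonic bases (46.6%) are annotated also to AC139530.2 on the same strand, a gene with 0 counts in all libraries.

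The promoter of SLC25A11 is shown to set a carrier that fell beside SLC25A25 (RefSeq, GRCh38.p14, chr17:4939997-4940296, minus strand). It holds no match to either motif, so all letters are in lower case.
SLC25A11: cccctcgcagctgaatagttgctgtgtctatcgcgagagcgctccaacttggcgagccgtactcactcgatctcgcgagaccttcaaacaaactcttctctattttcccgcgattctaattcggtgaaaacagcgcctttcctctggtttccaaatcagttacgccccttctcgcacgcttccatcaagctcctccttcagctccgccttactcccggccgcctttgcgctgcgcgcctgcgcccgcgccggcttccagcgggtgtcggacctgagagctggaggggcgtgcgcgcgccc
GC made up 60.7% of the SLC25A11 window, the lowest among carriers that fell. It made up 76.3% of the SLC25A25 window, the highest among carriers that rose. This pair thus runs against the group medians. Promoters of carriers that fell had a median of 73.8% GC (14 promoters) and those of carriers that rose 64.7% (13 promoters). The median was 66.3% for the 40 carrier promoters and 58% for all promoters.

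Of the carriers of aspartate and glutamate 3 fell and 1 rose. SLC25A12 (aralar) and SLC25A13 (citrin) export aspartate for glutamate in the malate-aspartate shuttle, which also uses SLC25A11. SLC25A12 (chromosome 2, 171784370 to 171999859) had 12.4, 10.0 and 9.34 CPM in Cur and 37.6, 36.6 and 35.6 CPM in Ctrl, a fall of 1.79 ± 0.11 on the log2 scale (adjusted p = 1.78e-12). SLC25A13 had 72.4, 77.4 and 70.7 CPM in Cur and 110, 122 and 117 CPM in Ctrl, a smaller fall of 0.66 ± 0.07 (adjusted p = 1.05e-08). The groups did not overlap for either gene. SLC25A22, the main glutamate carrier, fell by 1.09 ± 0.10 (28.1, 22.7 and 26.3 CPM in Cur and 61.7, 55.4 and 47.0 CPM in Ctrl), or by 0.35 with a GC offset. SLC25A18, the other glutamate carrier (chromosome 22, 17563439 to 17590994), was low, with 84, 78 and 85 counts in Cur and 12, 9 and 10 in Ctrl. It rose by 3.25 ± 0.28 (adjusted p = 4.99e-10), and 521 of its exonic bases lie opposite the noncoding gene AC007666.1. Per kilobase it still made up 3.86% ± 0.250 of the class in Cur and 0.228% ± 0.041 in Ctrl (SD, n = 3), while SLC25A13 made up 69.5% ± 2.84 in Cur and 62.3% ± 3.02 in Ctrl. Of the enzymes of the malate-aspartate shuttle, the cytosolic GOT1 (1.29 ± 0.06) and MDH1 (0.54 ± 0.06) rose, and the mitochondrial GOT2 fell by 0.73 ± 0.06. The mitochondrial MDH2 rose by 0.27 ± 0.07 under TMM scaling. Its unscaled counts overlapped, at 3437, 3104 and 2808 in Cur and 3064, 3202 and 3141 in Ctrl. No alternative fit is given for these enzymes.

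Carriers of other amino acids were split evenly, with 2 higher and 2 lower. SLC25A38, which brings glycine into the matrix for heme synthesis (chromosome 3, 39383324 to 39397351), had 94.5, 88.7 and 81.4 CPM in Cur and 25.9, 23.3 and 21.8 CPM in Ctrl. It rose 3.73-fold, or 1.90 ± 0.09 on the log2 scale (adjusted p = 1.19e-14). SLC25A44, a carrier of branched-chain amino acids, had 80.5, 74.3 and 75.9 CPM in Cur and 35.6, 38.6 and 32.6 CPM in Ctrl and rose by 1.11 ± 0.08 (adjusted p = 3.06e-11). SLC25A15, which exchanges ornithine for citrulline in the urea cycle, had 5.96, 7.22 and 5.62 CPM in Cur and 24.3, 24.1 and 22.1 CPM in Ctrl. It fell by 1.91 ± 0.12 on the log2 scale (adjusted p = 6.3e-12), and none of these 3 genes overlapped between the groups. SLC25A29, a carrier of basic amino acids, fell by 0.51 ± 0.14 (7.65 ± 0.844 CPM in Cur and 10.9 ± 0.386 CPM in Ctrl), but stood at 0.02 with a GC offset (adjusted p = 0.907). SLC25A2, the other ornithine carrier, had 0 counts in Cur and 2, 0 and 3 in Ctrl.

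The promoter of SLC25A38 is shown as that of a carrier that rose and has a lower GC content (51.3%; RefSeq, GRCh38.p14, chr3:39383120-39383419, plus strand). It holds neither motif.
SLC25A38: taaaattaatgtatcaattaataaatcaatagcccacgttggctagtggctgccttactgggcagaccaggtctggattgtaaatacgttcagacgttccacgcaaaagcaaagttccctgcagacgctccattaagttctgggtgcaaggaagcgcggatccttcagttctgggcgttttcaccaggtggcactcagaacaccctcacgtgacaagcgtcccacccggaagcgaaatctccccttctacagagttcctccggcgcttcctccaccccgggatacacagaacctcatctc

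Of the iron carriers, one fell and the other did not pass. SLC25A37 (mitoferrin-1), the importer known from developing red cells (chromosome 8, 23528805 to 23575463), had 63.6, 65.4 and 63.1 CPM in Cur and 139, 136 and 137 CPM in Ctrl. It fell by 1.10 ± 0.06 on the log2 scale (adjusted p = 6.86e-13), with no overlap. SLC25A28 (mitoferrin-2), the importer of most other cells, had 23.6, 24.6 and 23.6 CPM in Cur and 24.6, 20.6 and 17.8 CPM in Ctrl (0.19 ± 0.11, adjusted p = 0.122), but passed as higher at 0.70 with a GC offset (adjusted p = 2.29e-07) and at 0.31 without Ctrl replicate 1 (adjusted p = 0.0229). Per kilobase SLC25A37 was the larger part of the pair in every Ctrl library, at 54.9, 58.6 and 62.4%, and the smaller part in every Cur library, at 36.8, 36.4 and 36.5%. That share differed by -22.0 percentage points (exact permutation test, p = 0.1, the smallest possible), or by -13.9 percentage points from counts not divided by length. The change of order rests on that division: from counts alone SLC25A37 was the larger part in both groups, at 72.7% or more in each Cur library and 84.9% or more in each Ctrl library. Of 6 listed genes that use or export mitochondrial iron 4 fell and 2 rose, beside 40.3% and 39.4% of all genes. Among those that fell was the heme-linked transporter ABCB10 (-1.24 ± 0.09). The iron-sulfur scaffold ISCU rose by 1.23 ± 0.06.

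Both glutathione carriers fell. SLC25A39 had 68.3, 61.4 and 53.0 CPM in Cur and 139, 130 and 130 CPM in Ctrl, a fall of 1.13 ± 0.08 on the log2 scale (adjusted p = 2.16e-11), or of 0.56 with a GC offset. SLC25A40 had 31.3, 31.6 and 33.1 CPM in Cur and 34.4, 35.9 and 41.6 CPM in Ctrl, which did not overlap but lay close together. Its fall of 0.22 ± 0.09 (adjusted p = 0.0294) was lost with DESeq2-type size factors (adjusted p = 0.0615), with DESeq2 (0.0902), against a 1.2-fold change (0.478), and without Cur replicate 1 (0.0531), Cur replicate 2 (0.079) or Ctrl replicate 3 (0.16). With a GC offset it was larger, at -0.95. Of the exons of SLC25A40, 142 bases (2.79%) lie opposite DBF4, which had 8683 counts over all libraries. The summed level of the pair was 92.9 ± 6.71 CPM in Cur and 170 ± 4.17 CPM in Ctrl (SD, n = 3).

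Both pyrimidine nucleotide carriers rose by similar amounts. SLC25A36 (PNC2) had 155, 202 and 187 CPM in Cur and 68.6, 59.7 and 70.8 CPM in Ctrl, a rise of 1.45 ± 0.09 on the log2 scale (adjusted p = 4.85e-11). SLC25A33 (PNC1), known to respond to insulin signalling, had 35.7, 35.7 and 36.7 CPM in Cur and 11.5, 13.4 and 13.4 CPM in Ctrl, a 2.82-fold rise (SE 0.10 on the log2 scale, adjusted p = 6.83e-12). No library of one group reached into the other for either gene. SLC25A36 took 61.8, 67.9 and 65.6% of their counts per kilobase in Cur and 69.0, 62.5 and 66.4% in Ctrl, which overlapped (difference -0.85 percentage points, exact permutation test, p = 0.7). With a GC offset SLC25A36, at 37.3% GC, rose by 0.83 and SLC25A33, at 45.7% GC, by 1.34.

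Among 7 tested carriers of cofactors 3 rose, 2 fell and 2 did not pass. SLC25A17, which carries CoA and FAD across the peroxisomal membrane, had 49.9, 49.0 and 57.3 CPM in Cur and 30.6, 30.1 and 31.4 CPM in Ctrl and rose by 0.76 ± 0.08 (adjusted p = 3.44e-08), or by 0.42 with a GC offset. SLC25A26, the carrier of S-adenosylmethionine, rose by 0.72 ± 0.11 (22.6 ± 2.61 CPM in Cur and 13.8 ± 0.739 CPM in Ctrl). Of the exons of SLC25A26, 907 bases (15.5%) lie opposite LRIG1, which had 1133 counts over all libraries. SLC25A42, a CoA carrier, was low, with 40, 36 and 43 counts in Cur and 17, 21 and 27 in Ctrl, and rose by 1.14 ± 0.30 (adjusted p = 0.00147), or by 1.75 with a GC offset. SLC25A16, linked to CoA supply in yeast, fell by 0.52 ± 0.10 on the log2 scale, and stood at -0.94 with a GC offset. SLC25A51, the NAD carrier, stood at 11.9 ± 0.272 CPM in Cur and 10.9 ± 0.736 CPM in Ctrl and did not pass (0.12 ± 0.12, adjusted p = 0.378), and SLC25A52, its near-identical copy, had 0 counts in all libraries. SLC25A32, which carries folate and FAD, had 12, 25 and 18 counts in Cur and 20, 32 and 11 in Ctrl (0.08 ± 0.42, adjusted p = 0.869). Of its exons 2547 bases (69.7%) are annotated also to AC012213.5 on the same strand, a gene with 0 counts. The level of SLC25A32 may thus leave out reads that fit both genes. A further overlap, of 406 exonic bases (11.1%), lies opposite DCAF13, which had 11152 counts over all libraries.

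Folate is the substrate of the mitochondrial one-carbon pathway. Of its 5 listed enzymes 3 fell and 0 rose, beside 40.3% and 39.4% of all genes. SHMT2 fell by 1.17 ± 0.06, MTHFD1L by 1.44 ± 0.07 and MTHFD2 by 0.23 ± 0.05 on the log2 scale. MTHFD2L (0.27 ± 0.13) and ALDH1L2 (-0.30 ± 0.44) did not pass. SLC25A20, the carnitine-acylcarnitine carrier of fatty acid oxidation, had 11.1, 11.4 and 10.6 CPM in Cur and 13.6, 13.4 and 10.8 CPM in Ctrl and did not pass (-0.19 ± 0.13, adjusted p = 0.179). It was called lower with library totals (-0.45) and without Ctrl replicate 3 (-0.30, adjusted p = 0.0452). The 3 tested enzymes on either side of it fell, beside 40.3% of all genes. CPT1A fell by 0.53 ± 0.08, CPT2 by 1.24 ± 0.16 and CRAT by 0.31 ± 0.12 on the log2 scale. CPT1B and CPT1C were too low to be tested. SLC25A48, a choline carrier, had 0 counts in all libraries.

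SLC25A46, which takes part in the dynamics of the outer membrane, had 67.2, 68.1 and 70.8 CPM in Cur and 40.0, 39.9 and 42.3 CPM in Ctrl. It rose by 0.75 ± 0.07 (adjusted p = 4.79e-09), but stood at -0.03 with a GC offset (adjusted p = 0.678). Its longest transcript, at 32.1% GC, has the lowest GC content of the 40 tested carriers. Of the carriers whose substrate is not settled, SLC25A43 had the most counts, at 7.94, 7.79 and 7.70 CPM in Cur and 18.2, 16.3 and 18.6 CPM in Ctrl, and fell by 1.18 ± 0.12 on the log2 scale (adjusted p = 1.06e-08). SLC25A35 had 14, 15 and 11 counts in Cur and 101, 91 and 81 in Ctrl and fell by 2.49 ± 0.27 (adjusted p = 2.11e-08), but 1293 of its exonic bases (33.2%) lie opposite RANGRF. SLC25A34, its close relative, had 18, 17 and 17 counts in Cur and 5, 4 and 3 in Ctrl and rose by 2.35 ± 0.49 (adjusted p = 1.83e-04). SLC25A45 had 13, 11 and 8 counts in Cur and 32, 45 and 63 in Ctrl and fell by 1.84 ± 0.36 (adjusted p = 9.2e-05). SLC25A53 did not pass (-0.22 ± 0.18, adjusted p = 0.259), although its values of 4.16, 5.09 and 4.74 CPM in Cur lay below the 5.33, 5.21 and 5.73 CPM in Ctrl, and it was called lower under library totals (-0.48) and under the GC offset (-0.64). SLC25A47, a liver carrier, had 2 counts over the Cur libraries and 0 over the Ctrl libraries. For the carriers at 0 in all libraries, 3 counts over the 6 libraries, or 0.0287 CPM, was taken as the upper limit for counting error alone. This limit does not cover reads of SLC25A52 that also fit SLC25A51, since the counting of such reads is not known.

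Per kilobase of exon, the carriers with the highest levels in Cur were SLC25A5 (129 CPM per kilobase), SLC25A6 (109), SLC25A3 (103), SLC25A25 (35.6) and SLC25A38 (32.6). In Ctrl they were SLC25A5 (170 CPM per kilobase), SLC25A3 (77.3), SLC25A6 (62.1), SLC25A39 (37.7) and SLC25A13 (31.4). SLC25A25 thus stood at rank 4 of 48 in Cur and at rank 26 in Ctrl, and SLC25A38 at rank 5 in Cur and 14 in Ctrl. SLC25A11 stood at rank 21 in Cur and 6 in Ctrl. These levels use the length of all annotated exons joined, which can exceed that of the mRNA, as for SLC25A3 with 8896 bases.

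Genes that bring carriers to the inner membrane were mostly lower. Carriers enter through the TOMM70 receptor, are escorted by small TIMM chaperones and are inserted by the TIMM22 complex. Of the 10 listed genes of this route 8 fell and 2 rose, beside 40.3% and 39.4% of all genes. Some of these changes were small, and the groups overlapped for TIMM22 (-0.26 ± 0.10, adjusted p = 0.0188 from edgeR). No alternative fit or GC offset is given for the genes of this route. TIMM13 (-1.55 ± 0.12), TIMM8A (-1.18 ± 0.14) and TIMM10 (-1.02 ± 0.11), small chaperones of the intermembrane space, fell most, and TOMM70 rose by 0.67 ± 0.06. All 3 porins of the outer membrane rose under TMM scaling, beside 39.4% of all genes. VDAC2 rose most, with 555 ± 13.2 CPM in Cur and 193 ± 4.79 CPM in Ctrl (1.53 ± 0.05). VDAC3 rose by 0.88 ± 0.06 and VDAC1 by 0.25 ± 0.06. The unscaled counts of VDAC1 overlapped, at 6577, 6514 and 6256 in Cur and 6308, 7200 and 6210 in Ctrl. Both subunits of the mitochondrial pyruvate carrier, which is not an SLC25 protein, rose under TMM scaling. MPC1 rose 2.83-fold (SE 0.27 on the log2 scale) at a low level (3.47 ± 0.751 CPM in Cur and 1.22 ± 0.0602 CPM in Ctrl). MPC2 rose by 0.23 ± 0.07, but its unscaled counts overlapped, at 1357, 1292 and 1382 in Cur and 1277, 1525 and 1352 in Ctrl. No alternative fit is given for the porins or the pyruvate carrier. Library totals in place of TMM scaling moved the median of all genes by -0.27.

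GC content moved with these results. Across the 40 tested carriers the log2 fold change had a Spearman rho of -0.25 with the GC content of the longest transcript, and across 15154 genes one of -0.34; genes of the same libraries are not independent replicates. When all tested genes were cut by GC content into 3 equal parts, 9 carriers lay in the lowest part (4 rose, 2 fell), where 56.0% of all genes rose and 23.7% fell. In the middle part 5 of 16 carriers rose and 7 fell, beside 39.1% and 39.4% of all genes, and in the highest part 5 of 15 rose and 9 fell, beside 23.0% and 57.8%. The share that fell was larger at higher GC content for carriers (22.2, 43.8 and 60.0%) as for all genes, while the carriers' share that rose was 44.4, 31.2 and 33.3%. With a spline offset for GC content 15 carriers rose and 18 fell, beside 38.4% and 41.0% of all genes. The direction differed from that above for SLC25A1, SLC25A24, SLC25A29, SLC25A32 and SLC25A46, and of these SLC25A1 passed as higher and SLC25A24 as lower. With library totals in place of TMM scaling, which moved the median of all genes by -0.27, 14 carriers rose and 21 fell, beside 31.8% and 48.6% of all genes in that fit. The part of GC content in the carrier results was not tested beyond these fits.

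**Figure D4:**
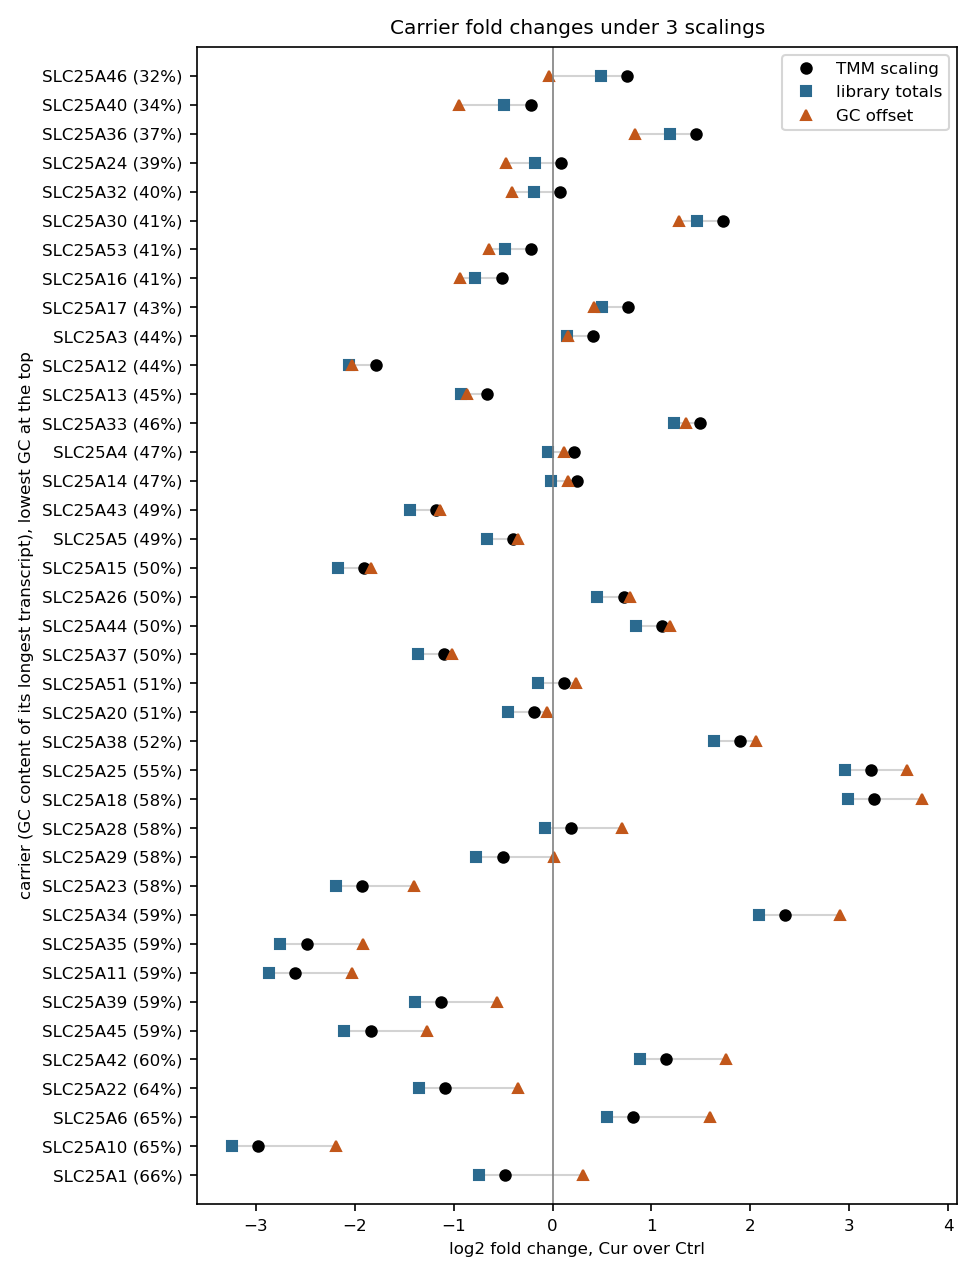
Log2 fold change (x axis, Cur over Ctrl) of the tested carriers named in the text under TMM scaling (black circles), library totals (blue squares) and a GC offset (orange triangles), with carriers ordered down the page from lowest to highest GC content of the longest transcript. The triangles lie left of the circles for carriers of low GC content and right of them for most of high GC content, so that SLC25A46 at the top moves from 0.75 to -0.03 and SLC25A1 at the bottom from -0.48 to 0.31.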

How the data were processed

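Poly(A)-selected RNA of 3 curcumol-treated and 3 control cultures was fragmented and sequenced in pairs, per the labels' protocols. The deposited table holds whole-number counts for each gene and library, with no normalization. Per the submitters' processing notes the genome is GRCh38 (hg38). For the aligner, counter, annotation release and strand setting the entry is: not given in the sources used here. All 58735 identifiers were found in GENCODE 29, which gave coordinates, exon lengths, overlaps and the GC content of the longest transcript. Promoters are from RefSeq.

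Genes were filtered with filterByExpr (15160 kept), given TMM factors and tested by quasi-likelihood F tests in edgeR 4.0.16 (robust, two-sided, R 4.3.3) with Benjamini-Hochberg adjustment over all genes tested. An SE is the size of the log2 fold change over the root of its F. CPM use TMM-scaled library sizes. No pair of replicates was a repeat deposit: their chi-square over its degrees of freedom was 3.68 to 8.82. Alternatives were DESeq2 1.42.0, limma-voom (limma 3.58.1), other scalings and filters, a replicate block, offsets for GC content and exon length (splines with 5 degrees of freedom), a test against a 1.2-fold change and each library left out. The code was tested on simulated counts. Both the depth and the 3 libraries a group limit precision; limits for counts of 0 cover counting error only. Carriers that passed the filter are named, except 1 that is counted but, like some pathway genes, not reported here, and those with the smallest p of a class or a change of 2-fold are given by library; pathway genes are named when changed 2-fold or in short lists. The carriers and lists were chosen with earlier results of these data known.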

Additional observations from a re-analysis of the deposited data

How the results depend on the processing

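Of the 40 tested carriers 28 kept their direction and their side of the threshold in every alternative fit that tested them, 13 of them higher and 15 lower in Cur, and 12 did not in at least 1 fit. For 24 of the 28 these were all 17 fits; SLC25A18, SLC25A34, SLC25A42 and SLC25A45 were in 16, since the stricter filter left 35 carriers. The number of carriers higher ran from 12 to 16 and lower from 17 to 21. With library totals the median log2 fold change of the carriers was -0.32, and SLC25A4 (-0.0506), SLC25A14 (-0.0187), SLC25A24 (-0.18), SLC25A28 (-0.0765), SLC25A32 (-0.18) and SLC25A51 (-0.15) turned negative. With a GC offset SLC25A1 (0.31) and SLC25A29 (0.0178) turned positive and SLC25A24 (-0.47), SLC25A32 (-0.41) and SLC25A46 (-0.0333) negative, and with the replicate block and the GC offset together these were 0.31, 0.0161, -0.47, -0.37 and -0.0343. SLC25A32 was at -0.20 without Cur replicate 2 and ran from -0.25 (without Ctrl replicate 3) to 0.497 (without Ctrl replicate 2). The cause of these changes was not tested. The replicate block gave 14 carriers higher and 18 lower and changed no carrier call; the same numbers did not pair the libraries (correlations of deviations -0.01 to 0.08). Without division by exon length the difference in share, in percentage points, was 51.1 for SLC25A25, 8.25 for SLC25A30, 24.0 for SLC25A38 and -13.9 for SLC25A37, since length enters the share itself. Leaving out 1 library at a time, the SLC25A36 share differed by -2.59 to 0.785 percentage points. Depth limits the carriers under about 50 counts a library, whose standard errors reach 0.49.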
